A study of Homo sapiens with 54 samples.

Results

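H/ACA small RNAs are short non-coding RNAs that fold into a pair of hairpins joined by a hinge, the H box, and that end in an ACA triplet close to their 3′ end. They guide the enzyme dyskerin, encoded by DKC1, to uridines that it converts to pseudouridine. Members named SNORA act in the nucleolus on ribosomal RNA, and those named SCARNA act in Cajal bodies, mostly on the RNAs of the spliceosome. Most are cut out of introns of host genes and carry no poly(A) tail. The genes described here were all those whose symbol began with SNORA or SCARNA, which gave 160 (132 SNORA and 28 SCARNA) of the 27043 genes listed in each table. Some SCARNA guide methylation instead, as SCARNA2 does, so not all 160 are H/ACA RNAs.

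RNA-seq was made from RH4, an established line of fusion-positive rhabdomyosarcoma driven by PAX3-FOXO1, in a study of the histone demethylase inhibitors P3FI-63 and P3FI-90. Of 24 libraries, 23 were labelled polyA RNA and 1, a scrambled control at 48 h, total RNA. The polyA libraries were a screen of DMSO and 7 compounds with 1 library each, 6 h DMSO and P3FI-90 with 1 library each, 24 h DMSO (n = 3), P3FI-90 (n = 3) and P3FI-63 (n = 2), a CRISPRi control at 7 days, and RH4 tumors grown in mice and treated for 5 days with DMSO (n = 2) or P3FI-90 (n = 2). The labels gave a dose of 10 µM for P3FI-63 at 24 h and of 1 µM for replicates 3 and 4 of P3FI-90, and marked replicate 1 and the 6 h library of P3FI-90 as "lo", with no concentration, so the P3FI-90 group at 24 h may mix doses. The labels gave 24 h as the time of the screen, and the study's text gives a shorter one for P3FI-63. All libraries came from 1 cell line. The 4 tumors came from 4 different mice by their labels. The labels of 24 h DMSO replicates 3 and 4 carry different strings that look like dates, and the study's methods mention biological triplicates among the RNA-seq samples. The labels of the cultured replicates do not say whether they were separate cultures, so their p-values measure only the spread between these samples. Values were TPM (transcript abundances scaled to the same total in every library), which keep no depth, so the depth is unknown.

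The sequences below are those of the members on which the results turn, from GRCh37 at the listed coordinates, 5′ to 3′ on the strand of the RNA. In the first 5, capitals mark the H box (ANANNA nearest the middle) and the ACA 3 bases from the end. SNORA63, SNORA70 and SNORA48 are shown because they share a listed length of 135 bases, which makes their values comparable step by step. SNORA7A, SNORA8 and SNORA73B each had replicate groups that did not overlap in a comparison, and SCARNA12 was above 0 in the most polyA libraries.
SNORA63 (chr3:186505088-186505222, plus strand, inside EIF4A2): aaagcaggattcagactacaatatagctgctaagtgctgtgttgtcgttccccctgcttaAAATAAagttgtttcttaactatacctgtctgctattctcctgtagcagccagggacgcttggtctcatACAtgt
SNORA70 (chrX:153628622-153628756, plus strand, inside RPL10): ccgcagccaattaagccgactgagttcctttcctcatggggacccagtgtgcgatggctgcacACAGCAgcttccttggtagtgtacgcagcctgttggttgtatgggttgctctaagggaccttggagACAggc
SNORA48 (chr17:7478031-7478165, plus strand, inside EIF4A1): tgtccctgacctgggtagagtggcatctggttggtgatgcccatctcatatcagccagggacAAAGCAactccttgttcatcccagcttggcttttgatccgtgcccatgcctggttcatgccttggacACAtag
SNORA7A (chr3:12881811-12881949, minus strand, inside RPL32): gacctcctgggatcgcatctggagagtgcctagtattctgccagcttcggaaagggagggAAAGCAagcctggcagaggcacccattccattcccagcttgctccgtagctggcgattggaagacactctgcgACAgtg
SNORA8 (chr11:93465527-93465665, minus strand, inside TAF1D): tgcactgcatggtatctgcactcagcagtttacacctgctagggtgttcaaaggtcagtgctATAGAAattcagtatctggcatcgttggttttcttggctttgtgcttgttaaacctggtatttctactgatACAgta
SCARNA12 (chr12:7076500-7076769, minus strand, inside PHB2; capitals mark TGATGA, the H box and CTGA): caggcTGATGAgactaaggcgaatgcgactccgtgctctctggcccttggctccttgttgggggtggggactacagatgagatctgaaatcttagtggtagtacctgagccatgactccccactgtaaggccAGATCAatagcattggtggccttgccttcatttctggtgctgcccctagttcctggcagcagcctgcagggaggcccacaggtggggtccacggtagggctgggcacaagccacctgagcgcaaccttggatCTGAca
SNORA73B (chr1:28835070-28835227, plus strand, inside SNHG3): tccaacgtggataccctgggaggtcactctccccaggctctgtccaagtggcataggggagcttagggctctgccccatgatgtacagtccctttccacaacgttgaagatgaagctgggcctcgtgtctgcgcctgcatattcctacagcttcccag

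The letters of the family were looked for on the strand of each RNA, in the 108 members whose single listed span matched a small RNA of the GENCODE annotation. ACA stood exactly 3 bases from the end in 68 of 88 SNORA (77.3%) and 13 of 20 SCARNA (65.0%), against 2 of 194 box C/D small RNAs named SNORD (1.03%). ANANNA within 15% of the length from the middle was in 94.3% of SNORA and 85.0% of SCARNA, but also in 52.1% of SNORD, so these letters alone do not set the family apart. TGATGA, letters of the box C of methylation guides, stood somewhere in 9 of 20 SCARNA (45.0%), SCARNA12 among them, in 2 of 88 SNORA (2.27%) and in 76.8% of SNORD. TGATGA near the start with CTGA near the end stood in 5 of 20 SCARNA (25.0%), 0 SNORA and 63.4% of SNORD. The symbols thus do not pick out H/ACA RNAs alone. SNORA73B (U17), which acts in ribosomal RNA processing and not as a usual guide, was listed with 158 bases where GENCODE gives 204, so its listed span stops short of the annotated 3′ end and held no ACA there.

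No member was above 0 in every polyA library. Of the 160 members, 82 were at 0 in all 23 polyA libraries and the other 78 were at 0 in some and above 0 in others. Only 15 were above 0 in at least 12 polyA libraries, and 42 were above 0 in 1 to 4 of them. Per polyA library, 5 to 43 members were above 0 (median 17.0), and their summed level ran from 47.1 TPM in tumor P3FI-90 replicate 2 to 3593 TPM in 6 h DMSO (median 677.6 TPM). The share of all TPM that members took was at most 0.359%.

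**Figure D1:**
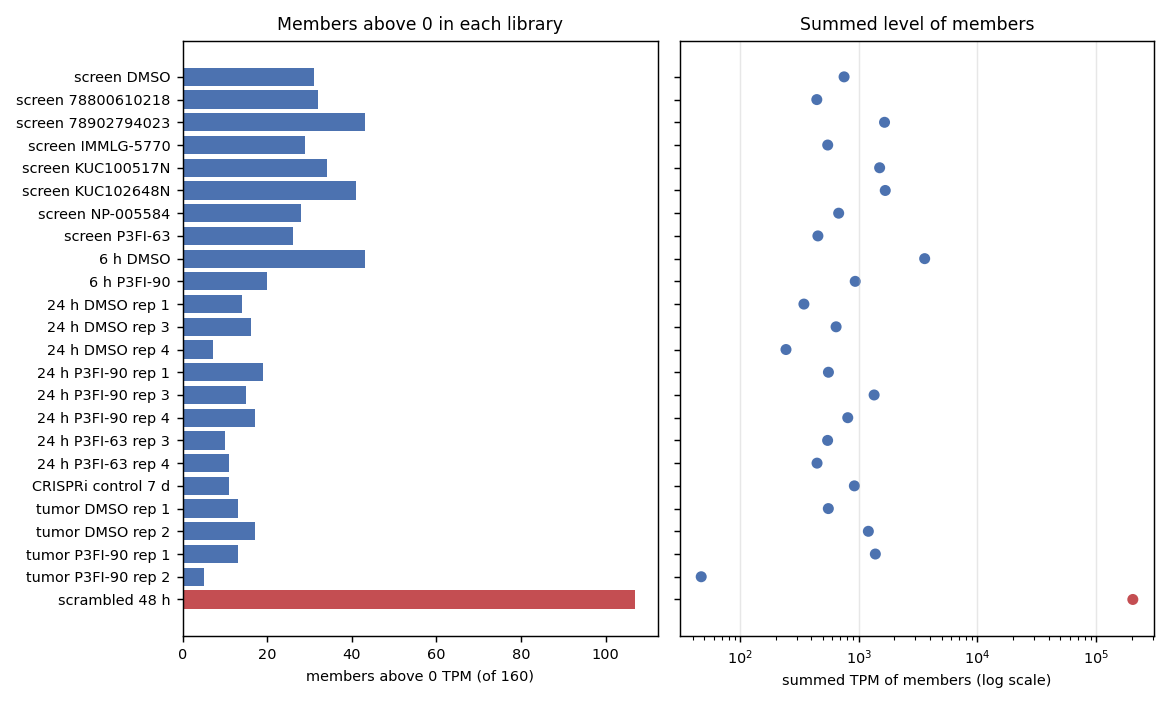
Number of members above 0 TPM (left, of 160) and their summed TPM (right, log scale) in each of 24 libraries, polyA RNA in blue and total RNA in red. The total RNA library had 107 members above 0 and the polyA libraries 5 to 43.

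In the total RNA library 107 members were above 0, and their summed level was 203621 TPM, or 20.4% of that library's TPM. TPM divide reads by length, so this is not a share of its reads. SNORA63 alone stood at 56964 TPM, SNORA73B at 36088 TPM, SNORA17B at 16354 TPM, SNORA48 at 10616 TPM and SNORA7A at 7996 TPM, and these 5 made up 62.9% of the members' TPM. In that library 32 members were above 0 that no polyA library showed. Of the 75 members above 0 in both kinds of library, 63 were higher in total RNA than in every polyA library. Over all 75 the median ratio of total RNA to the highest polyA value was 9.07. RMRP and RPPH1, the RNA parts of RNase MRP and RNase P, which lack poly(A) tails too, were at 80193 and 118041 TPM there. There was 1 total RNA library, so this comparison has no replicate check, and RNA selection cannot be told apart from the other ways in which that library differed.

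**Figure D2:**
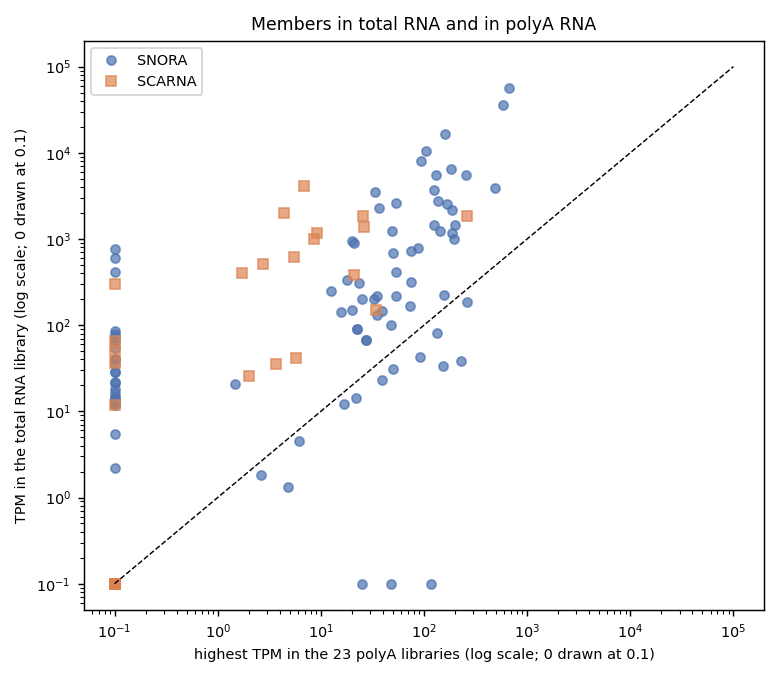
TPM of each of the 160 members in the total RNA library against its highest TPM in the 23 polyA libraries (SNORA blue circles, SCARNA orange squares), both on log scales with 0 drawn at 0.1 and the dashed line at equality. SNORA63 lies at 56964 TPM against 664 TPM, and 12 members above 0 in both lie on or below the line.

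The other 12 members were not higher in total RNA than in every polyA library. SNORA18 was at 187 TPM in total RNA and at 264 TPM in the CRISPRi control, and SNORA5A was at 38.1 TPM and 230 TPM in the same libraries. SNORA104, SNORA71E and SNORA41 were at 0 in total RNA but above 0 in polyA libraries. SNORA71E and SNORA41 each had a single value above 0, at 25.1 and 47.4 TPM. SNORA104 was above 0 in 10 polyA libraries, from 16.5 to 117 TPM.

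The values above 0 were not spread evenly but stood on steps. In 13 polyA libraries at least 2 different values were found among the members of 135 bases. The step was searched for as the lowest value divided by 1, 2, 3 and so on, until all values stood within 0.03 of a whole multiple. With only 2 different values such a search always finds a step, so those libraries could not fail. The divisor found was 1 to 3 in all 13. In 6 h DMSO and 24 h P3FI-90 replicate 3, among others, 3 different values stood on a single step with a divisor of 1. In 6 h DMSO, SNORA48 was at 30.2 TPM, SNORA70 at 362 TPM and SNORA63 at 664 TPM, which are 1, 12 and 22 steps of 30.20 TPM. In 24 h P3FI-90 replicate 3 the same members were at 81.2, 487 and 162 TPM, which are 1, 6 and 2 steps of 81.21 TPM. In screen DMSO SNORA70 was at 53.3 TPM and SNORA63 at 79.9 TPM, which are 2 and 3 steps of 26.64 TPM, and SNORA48 was at 0.
The step differed between libraries. It was 14.61 to 29.19 TPM in the screen, 30.20 and 33.99 TPM at 6 h, and 50.65 to 81.21 TPM in the 3 libraries at 24 h where it could be read. SNORA48 at 50.7 TPM in 24 h P3FI-90 replicate 4 was thus 1 step, whereas SNORA63 at 56.9 TPM in screen P3FI-63 was 3. TPM divide the estimated reads of a gene by its effective length and by the library's total, so genes of a single length share a step within a library. Over all lengths, 113 member values could be set against the lowest value of a small RNA of the same length, up to 10 times that value. Of these, 88 (77.9%) were within 0.05 of a whole multiple and 25 were not. Among the 88, 47 equalled the lowest value, and 41 stood at 2 to 10 times it.

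**Figure D3:**
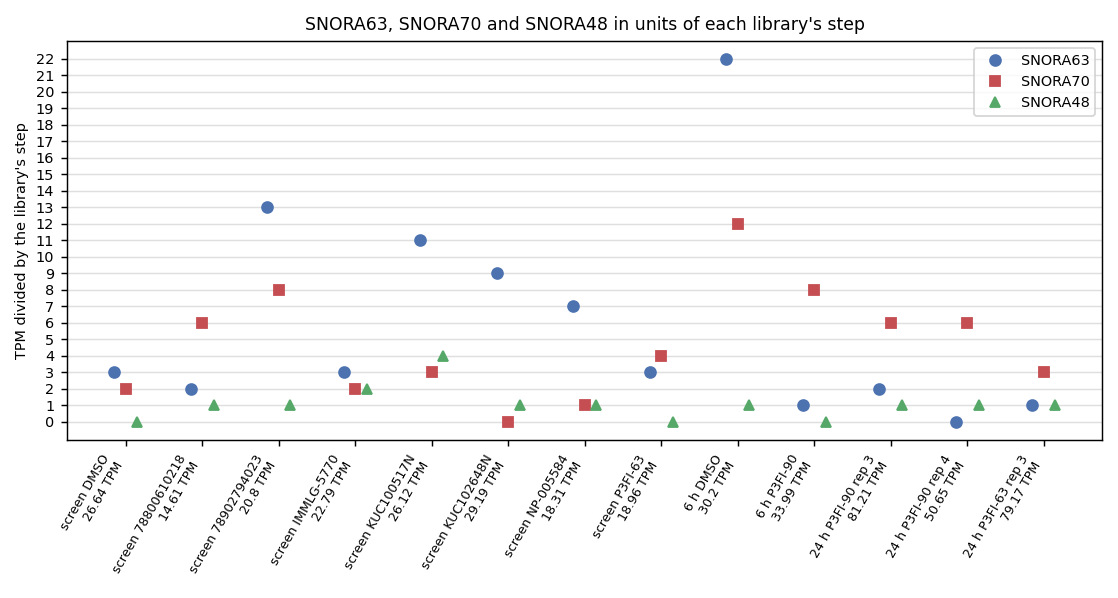
TPM of SNORA63, SNORA70 and SNORA48, each 135 bases long, divided by the library's step, in the 13 polyA libraries with at least 2 different values among members of that length. Every point lies on a whole number, from 0 to 22, and the step is given in TPM under each library. Where a library has only 2 different values, this follows from how the step was searched for.

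The lowest value that a member could show fell with its listed length. Among the 109 members of 120 to 139 bases, 48 were above 0 in some polyA library, and the median of their lowest values above 0 was 22.2 TPM. All 6 members of 300 bases or more were above 0 in some polyA library, with lowest values of 0.28 to 1.15 TPM. SCARNA2, which guides methylation of the U2 RNA and is listed with 420 bases, was above 0 in 19 polyA libraries but never over 4.4 TPM there, against 1976 TPM in total RNA. SNORA70, with 135 bases, was above 0 in 18 libraries and reached 487 TPM, against 3933 TPM in total RNA.
Below a certain length nothing was listed above 0. Of 1920 genes of any kind with fewer than 114 bases, 0 were above 0 in any of the 24 libraries, total RNA included. The members among them were 3, SNORA95, SNORA98 and SNORA103. The shortest member above 0 anywhere was SNORA26, with 122 bases, and it was above 0 in total RNA only, at 412 TPM. Among members of 130 to 139 bases 66 of 86 were above 0 in some library, against 8 of 21 members of 122 to 129 bases. An exact 0 in these tables is a value of the estimate, and the tables do not tell it from a measured absence.

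**Figure D4:**
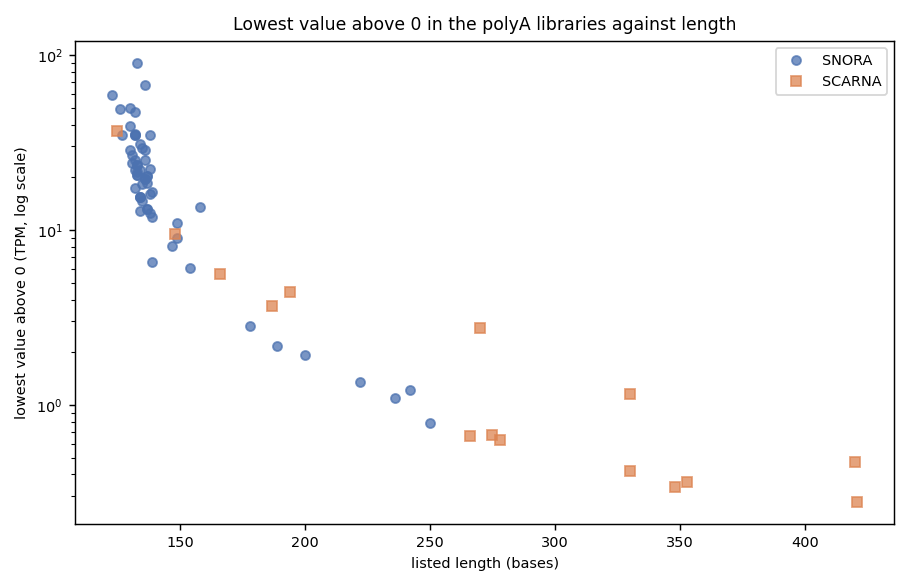
Lowest value above 0 in the 23 polyA libraries (TPM, log scale) against listed length in bases, for SNORA in blue and SCARNA in orange. Members of 120 to 139 bases have a median lowest value of 22.2 TPM and those of 300 bases or more lie between 0.28 and 1.15 TPM.

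The SCARNA were longer, and more of them were seen in many libraries at low values. Of 28 SCARNA, 15 were above 0 in some polyA library and 8 of these in at least 12, and the highest values of the 15 had a median of 6.88 TPM. Of 132 SNORA, 63 were above 0 in some polyA library and 7 in at least 12, and the highest values of the 63 had a median of 53.3 TPM. SCARNA12 (U89) was above 0 in 22 polyA libraries at 2.75 to 25.8 TPM and at 1835 TPM in total RNA. SCARNA17 was above 0 in 20 libraries, SCARNA10 (U85) in 18, SCARNA7 (U90) in 16, SCARNA9 in 15, and SCARNA13 and SCARNA22 (ACA11) in 12 each. SCARNA22 stood apart from the others, since it has 125 bases and its values above 0 ran from 36.6 to 260 TPM. SCARNA28 and SCARNA9L were above 0 in 10 libraries each, SCARNA5 in 8, SCARNA1 in 5, SCARNA6 and SCARNA26A in 3 and SCARNA16 in 2. SCARNA3, SCARNA18, SCARNA18B, SCARNA21 and SCARNA23 were above 0 in total RNA alone, at 11.95 to 301 TPM, and SCARNA4, SCARNA8, SCARNA11, SCARNA14, SCARNA15, SCARNA20, SCARNA26B and SCARNA27 were at 0 in all 24 libraries.

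The host genes were present throughout while the members came and went. A host on the same strand was found in the table for 105 members, in 84 different genes, and 82 of these hosts were above 0 in every polyA library, with a median of 3.23 for the ratio of highest to lowest TPM. Of the 103 members inside these hosts, 50 were at 0 in every polyA library and all 103 were at 0 in at least 1. RPL10, a ribosomal protein gene that holds SNORA70, ran from 1570 to 2894 TPM, a 1.84-fold range, while SNORA70 ran from 0 to 487 TPM. EIF4A1 and EIF4A2, which encode RNA helicases of translation initiation, ran from 411 to 742 TPM and from 205 to 696 TPM, while SNORA48 and SNORA63 inside them ran from 0 to 104 TPM and from 0 to 664 TPM. In total RNA, 50 members stood above their hosts, as for SNORA63 at 56964 TPM against 338 TPM for EIF4A2.
Members of a single host could differ in how often they appeared. TAF1D, which encodes a subunit of the factor that starts ribosomal RNA transcription, holds 6 members, of which SNORA8, SNORA18 and SNORA40 were each above 0 in 8 polyA libraries and SNORA1, SNORA25 and SNORA32 in 0. Some member of TAF1D was above 0 in 14 polyA libraries and all 6 in 0. SNORA5A and SNORA5C of TBRG4 were above 0 in 5 and 7 libraries, and SNORA5B in 0. Hosts of members seen in some polyA library had a median of 108 TPM (53 members), and hosts of members never seen there a median of 32.9 TPM (52 members).
Where a member lay inside an annotated exon of another transcript, more of them were above 0. At least 50% of the span lay in such an exon for 40 members, and 27 of these (67.5%) were above 0 in some polyA library, against 27 of 68 other members (39.7%). Among members under 200 bases the counts were 25 of 38 (65.8%) and 19 of 59 (32.2%). Of the 38 members that lay wholly inside such an exon, 26 were above 0 in some polyA library, among them SNORA7A, SNORA8, SNORA18, SNORA40, SNORA48, SNORA63, SNORA70, SCARNA12, SCARNA13 and SCARNA22. There, reads of the host's transcripts and of the small RNA cannot be told apart.

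Replicates of a treatment rarely showed the same members. In 24 h DMSO 26 members were above 0 in any of the 3 libraries and 3 in all of them (11.5%), namely SCARNA12, SNORA70 and SNORA73B, whereas of the coding genes above 0 in any, 87.4% were above 0 in all. The coding genes were not matched to the members in level or length, so the 2 shares are not like for like. In 24 h P3FI-90 35 members were above 0 in any library and 4 in all 3 (11.4%), in 24 h P3FI-63 19 and 2 (10.5%), in tumor DMSO 22 and 8 (36.4%), and in tumor P3FI-90 15 and 3 (20%). The summed level of members was 345, 645 and 244 TPM in 24 h DMSO, 556, 1348 and 808 TPM in 24 h P3FI-90, and 547 and 445 TPM in 24 h P3FI-63. The lowest P3FI-90 library lay below the highest DMSO library, while within each of the 3 pairs of the same replicate number the sum was higher with P3FI-90. Over the members tested, the libraries of these pairs hardly deviated together (correlations of -0.008, 0.152 and 0.036). In tumors the sums were 554 and 1205 TPM with DMSO and 1380 and 47.1 TPM with P3FI-90, so the 2 treated tumors lay on either side of the control tumors. In these bulk samples fewer cells of a type and less RNA per cell cannot be told apart.

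P3FI-90 was then compared with DMSO at 24 h for each member. A filter of a mean of at least 1 TPM over the 8 libraries at 24 h left 38 of the 160 members, and limma on log2(TPM + 1) called 0 of them at an adjusted p under 0.05, where it called 1 of 12332 genes (0.00811%), or 3 with the replicate number as a block. At an unadjusted p under 0.05 it gave 2 members and 244 genes. The median log2 difference was 0.20 over the members tested and -0.08 over all genes. The residual SD of the members tested had a median of 2.16 on the log2 scale, against 0.44 for all genes, so replicates of a treatment differed for a member far more than for a usual gene. SNORA8 was the 1 member of the 38 for which all P3FI-90 values lay above all DMSO values, where 4.21% of all genes did so, and 0 members lay below, where 7.73% of genes did. SNORA8 was at 33.3, 66.4 and 40.7 TPM with P3FI-90 and at 27.5, 0 and 0 TPM with DMSO, a log2 difference of 3.91 (SE 1.10, adjusted p = 1.00 by limma). Without DMSO replicate 1, which leaves DMSO at 0, SNORA8 was called. It then passed the filter only through P3FI-90, since P3FI-63 was at 0 too, so that call adds nothing to these values. SNORA70 was at 40.5, 487 and 304 TPM with P3FI-90 and at 33.1, 118 and 71.4 TPM with DMSO, a log2 difference of 1.46 (SE 1.69, adjusted p = 1.00 by limma, or 0.838 with the replicate number as a block). The groups overlapped, and P3FI-90 was higher within each of the 3 pairs of the same number.

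P3FI-63 at 24 h was set against the same DMSO libraries as P3FI-90. It gave 1 called member of the same 38, against 292 of 12332 genes (2.37%), or 1358 with the replicate number as a block and 67 to 73 without any 1 DMSO library. This was SNORA73B, which was at 0 in both P3FI-63 libraries and at 13.5, 44.6 and 24.6 TPM with DMSO (adjusted p = 0.00635 by limma). With P3FI-90 it was at 47.3, 61.2 and 17.5 TPM. Its host SNHG3 was at 54.0 and 38.3 TPM with P3FI-63 and at 22.1, 37.5 and 19.1 TPM with DMSO, so the host was not lower where the member was at 0. In P3FI-63 replicate 3 the step for members of 135 bases was 79.17 TPM. The lowest value that the longer SNORA73B could show there was not determined, so its 0 is not known to lie below the DMSO values. SNORA73B was also at 0 in both DMSO tumors and in the CRISPRi control, and it was at 31.7 TPM with P3FI-63 in the screen. At an unadjusted p under 0.05, 3 members and 2432 genes were found, and the median log2 difference was 0.00 over the members tested and -0.35 over all genes. P3FI-63 replicate 4 stood apart in RMRP and RPPH1. They were at 1365 and 1361 TPM there, against at most 189 and 162 TPM in the other polyA libraries, while its members summed to 445 TPM. Without replicate 3, with replicate 4 alone, 6 members were called (SNORA52, SNORA57, SNORA61, SNORA70, SNORA73B and SNORA74A) and 4820 of all genes. Without replicate 4, SNORA73B was the only member among 286 of 12287 genes called (2.33%), and the median of all genes was 0.06.

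In tumors, 26 members passed the same filter and limma called 2 of them lower with P3FI-90. These were the only 2 genes called of 12357 (0.0162%), and 849 genes and 3 members had an unadjusted p under 0.05. SNORA61 was at 197 and 166 TPM in the DMSO tumors and at 0 in both P3FI-90 tumors. SNORA7A was at 93.7 and 76.7 TPM in the DMSO tumors and at 0 in both P3FI-90 tumors. Both passed the filter only through the DMSO tumors, so that they had to differ, and the calls add nothing to these values. SNORA7A lies wholly inside an annotated exon of RPL32, from whose reads it cannot be told apart. RPL32, the ribosomal protein gene that holds SNORA7A, was at 2636 and 3129 TPM with DMSO and at 2736 and 3672 TPM with P3FI-90. In cells at 24 h SNORA61 was at 0 in all DMSO and P3FI-90 libraries, and SNORA7A was above 0 in 1 DMSO library only, at 43.7 TPM. SNORA61 and SNORA7A were the 2 members of 26 that lay below both DMSO tumors in both P3FI-90 tumors, as did 40.0% of all genes, and 1 member lay above, as did 4.61% of genes. The latter was SCARNA7, at 9.17 and 1.82 TPM against 0 and 0 TPM (adjusted p = 0.573 by limma). It passed the filter only through the P3FI-90 tumors, so its lack of overlap adds nothing to these values. All 3 members called in either setting were thus at exactly 0 in every library of the lower group, where the spread within that group is also 0. With any 1 tumor left out, so that a lone tumor stood for its group, 13 to 18 members passed the threshold. All genes called then numbered 20 of 12201 (0.164%) without DMSO replicate 1, 65 (0.526%) without DMSO replicate 2, 1870 (15.2%) without P3FI-90 replicate 1 and 46 (0.368%) without P3FI-90 replicate 2.

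**Figure D5:**
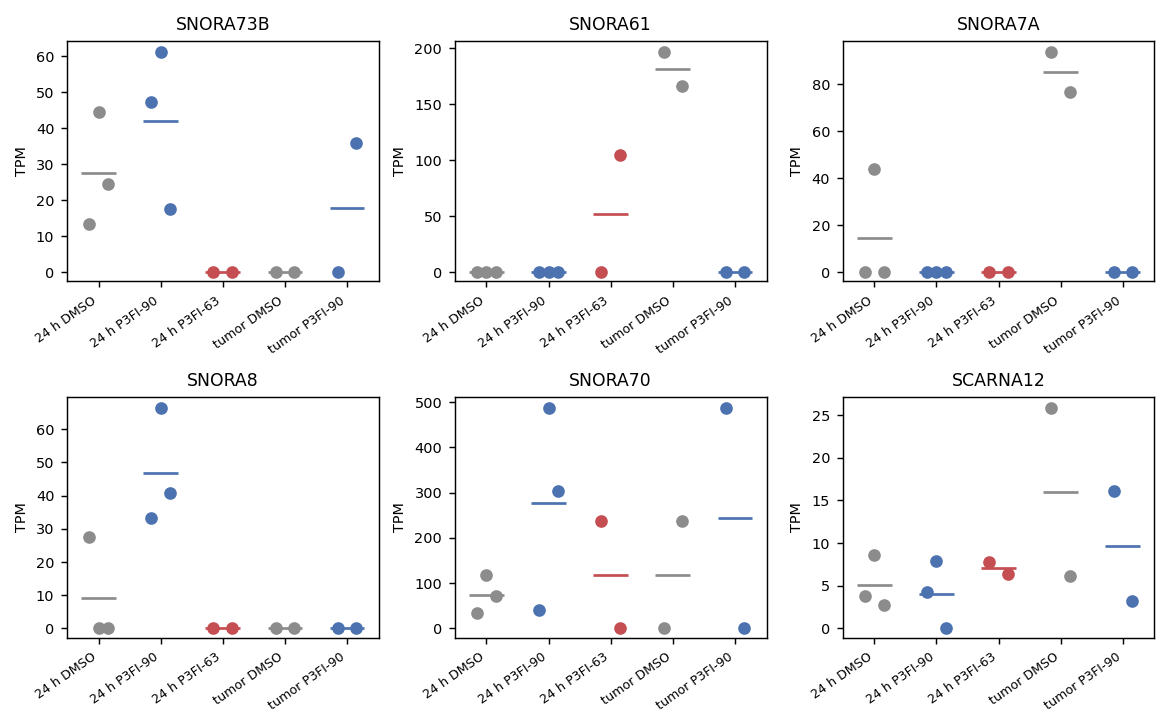
TPM of 6 members in each replicate (points) with the group mean (lines), for DMSO in grey, P3FI-90 in blue and P3FI-63 in red. SNORA73B is at 0 with P3FI-63 at 24 h, SNORA61 and SNORA7A are at 0 in the P3FI-90 tumors, and SNORA70 and SCARNA12 overlap between the groups at 24 h.

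None of the listed protein genes of the H/ACA and box C/D machinery passed the test in the fit without the replicate block. With the block, all genes called for P3FI-63 rose from 292 to 1358 of 12332. The listed genes were not examined in that fit, so the lack of calls does not show that they were unchanged. The particle proteins DKC1, NHP2, NOP10 and GAR1 ran over the polyA libraries from 102 to 309, 232 to 382, 300 to 446 and 44.3 to 140 TPM. Of these 4 genes, the 6 genes of assembly and Cajal bodies (NAF1, SHQ1, RUVBL1, RUVBL2, WRAP53 and COIL), the 4 genes of the box C/D particle (FBL, NOP56, NOP58 and SNU13) and the 8 genes of end processing and decay (DBR1, PARN, PAPD5, TOE1, EXOSC10, DIS3, XRN1 and XRN2), 0 passed limma's threshold in any of the 3 comparisons. The lowest log2 difference was that of the 5′ exonuclease XRN1 with P3FI-63, at -2.13 (SE 0.51, adjusted p = 0.0649 by limma). With P3FI-63 the median log2 difference was -0.36 for the particle genes and -0.63 for end processing and decay, beside -0.35 for all genes. Of the 84 host genes, 1 of the 82 tested was called with P3FI-63 in the fit without the block, beside 292 of 12332 genes (2.37%). Hosts therefore did not stand out from all genes. The host called was POLA1, which holds SCARNA23 and fell by 1.47 on the log2 scale (SE 0.31, adjusted p = 0.0443 by limma). TERC, the telomerase RNA, also ends as an H/ACA RNA, and it was at most 1.33 TPM in the polyA libraries against 145 TPM in total RNA, while TERT was at most 0.15 TPM.

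In the screen each compound had a single library, and all 7 were set against the same DMSO library, so ratios have no replicate check and no p. Of the 160 members, 61 had a mean of at least 1 TPM over the 8 libraries. After 78902794023, 25 members were at least 2-fold higher and 8 lower on the scale of TPM + 1, beside 0.561% and 0.179% of the 12304 genes tested. KUC102648N gave 23 higher and 8 lower (0.545% and 0.333% of genes), and KUC100517N 17 and 10 (0.610% and 0.349%). For 78800610218 the counts were 11 and 15 (0.276% and 0.236%), for IMMLG-5770 9 and 13 (0.203% and 0.252%), for NP-005584 12 and 15 (5.67% and 5.13%) and for P3FI-63 5 and 13 (2.30% and 0.805%). Over the 7 comparisons 184 changes of at least 2-fold were counted in members, and in 149 of them (81.0%) the member was at 0 in the treated or the DMSO library. Every tested member at 0 in only 1 of the 2 libraries compared was counted as 2-fold. The counts per compound thus mostly restate which members were at 0, and they are not like for like with the shares of all genes.
Members above 0 in both libraries were past 2-fold in 35 of 128 cases (27.3%). SCARNA22 was at 0 in screen DMSO and above 0 with 6 compounds, at 36.6 to 88.9 TPM, and at 0 with KUC100517N. SNORA80B, inside the polyamine synthesis gene ODC1, was at 50.1 TPM in screen DMSO and was at 0 with 5 compounds, but at 58.8 TPM with 78902794023 and 137 TPM with KUC102648N. SNORA48 was at 0 in screen DMSO and at 104 TPM with KUC100517N and 45.6 TPM with IMMLG-5770. SNORA18 was at 0 in screen DMSO and at 75.02 TPM with 78902794023. SNORA67 was at 70.8 TPM in screen DMSO and at 0 with 78902794023, IMMLG-5770 and NP-005584.
The 3 screen libraries with the highest summed levels were high in other RNAs without poly(A) tails as well. KUC102648N, 78902794023 and KUC100517N had members summing to 1673, 1649 and 1499.8 TPM, against 443 to 753 TPM in the other 5. RMRP was at 128 to 152 TPM in these 3 libraries and at 29.8 to 87.1 TPM in the others, RPPH1 at 115 to 162 TPM against 19.1 to 57.9 TPM, and the summed SNORD at 291 to 476 TPM against 26.9 to 147 TPM. The part of these RNAs in the ratios was not tested.

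At 6 h, 45 members had a mean of at least 1 TPM over the 2 libraries, and 29 were at least 2-fold lower and 6 higher with P3FI-90 than with DMSO, beside 0.647% and 3.90% of the 12212 genes tested. Of the 29 lower members 26 were at 0 with P3FI-90, and of the 6 higher 4 were at 0 with DMSO. The filter used the same 2 libraries, so a member at 0 in 1 of them had to pass 2-fold, and these cases add nothing to the values. Of the 15 members above 0 in both libraries, 3 were at least 2-fold lower and 2 higher. SNORA63 was at 664 TPM with DMSO and 34.0 TPM with P3FI-90, and SNORA73B at 585 TPM and 26.8 TPM. SNORA71A, SNORA17B and SNORA71D were at 183, 158 and 131 TPM with DMSO and at 0 with P3FI-90, and SNORA22 was at 0 and 107 TPM. The 6 h DMSO library had the highest summed level of members of all polyA libraries, 3593 TPM, and P3FI-90 had 934 TPM, which lay within the 244 to 1673 TPM of the other cultured polyA libraries. RMRP was at 189 TPM with DMSO and 7.21 TPM with P3FI-90, and the summed SNORD at 671 and 222 TPM. Each group at 6 h had 1 library, so the treatment and the library cannot be told apart.

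RH4 markers were present in every library, with DES at 269 to 536 TPM and MYOD1 at 46.4 to 367 TPM over the polyA libraries, and of 6 such markers MYOG and MYCN fell with P3FI-63 at 24 h, by 2.06 and 1.83 on the log2 scale (SE 0.34 and 0.31, adjusted p = 0.0177 and 0.0205 by limma). Of the markers of leukocytes and endothelium, PTPRC, PECAM1 and VWF were at most 0.04, 0.97 and 0.25 TPM, and CD68 ran from 0.66 to 46.8 TPM. CD68 was highest in 24 h P3FI-63 replicate 3, with a log2 difference of 2.23 for P3FI-63 (SE 0.58, adjusted p = 0.0822 by limma). Of the stroma markers, COL3A1 ran from 379 to 1251 TPM in cultured cells and from 431 to 835 TPM in tumors, COL1A1 was at most 14.6 TPM and PDGFRA at most 4.63 TPM. DCN was at 7.12 to 13.7 TPM in tumors and at most 1.06 TPM in cultured cells. In sum the stroma markers stood at 388 to 1258 TPM in cells and 440 to 853 TPM in tumors, and those of leukocytes and endothelium at 2.01 to 47.1 TPM and 1.52 to 3.13 TPM. The tumors grew in mice and reads were aligned to the human genome, so these human genes need not show mouse cells of the tumors. The part of other cells in the results was not tested.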

How the data were processed

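Gene expression was measured by RNA-seq in 24 libraries, 23 of polyA RNA and 1 of total RNA. The deposited values are TPM, which the authors made with STAR and RSEM on hg19 (GRCh37), 1 table per library. Peaks, single cells and 2 tables of coding genes, which list no member, were not used. The members, lists and tests were chosen with earlier results of these data known.

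Lengths came from the listed start and end, and strand and hosts from the GRCh37 annotation of GENCODE for 108 members. Another 46 single spans had no match of at least 70% overlap, and 6 were listed at several loci. Groups were compared with limma 3.58.1 (R 4.3.3) on log2(TPM + 1), keeping genes that averaged 1 TPM or more across the libraries of a comparison, with Benjamini-Hochberg adjustment and a threshold of 0.05. The 24 h comparisons shared 1 fit over 8 libraries. All fold changes are on this scale, which understates changes of low genes. Single libraries were compared by ratios of TPM + 1, with 2-fold as the limit. The limma script was tested on simulated data. Members were named by a rule: the 10 highest by median TPM, the 10 highest by single value, those called by limma, the 3 highest and 3 lowest by ratio in each single-library comparison, every SCARNA, the hosts of these, and the listed protein and telomerase genes. Members outside it were named after their values were seen.

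Same-numbered replicates at 24 h deviated together over all genes (correlations of deviations of 0.571, 0.575 and 0.643 for P3FI-90 and 0.312 and 0.388 for P3FI-63), so the numbers were taken to pair the samples. Over the 38 members tested the correlations were -0.008, 0.152 and 0.036 for P3FI-90 and 0.325 and 0.069 for P3FI-63. The members themselves thus showed little of this pairing. Alternatives were other pseudocounts, filters and scalings, the replicate block, and leaving out each library.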

Additional observations from a re-analysis of the deposited data

How the results depend on the processing

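Over polyA and total RNA, 110 members were at 0 in some libraries and above 0 in others. The count was 78 over polyA libraries alone and 54 over cultured DMSO libraries alone, which are fewer libraries. With each library left out in turn, limma called 0 to 1 members for P3FI-90 at 24 h (the 1 was SNORA8, without DMSO replicate 1), 1 to 6 for P3FI-63 (6 without P3FI-63 replicate 3) and 13 to 18 in tumors, beside 20 to 1870 of all genes, where 2 were called with all 4. A lone library was assumed to vary like the other groups. The tumor log2 difference of SNORA70 was 0.52 with all libraries, -3.95 without P3FI-90 replicate 1 and -3.43 without DMSO replicate 1, and 4.98 without P3FI-90 replicate 2. With the replicate block, the members called were again 0 for P3FI-90 and 1 for P3FI-63, while all genes called rose from 1 to 3 and from 292 to 1358. All genes called for P3FI-63 were 532 with median-ratio scaling (332 higher and 200 lower, against 143 and 149), 68 with only the 2 groups compared, 67 to 73 without any 1 DMSO library, and 4820 without P3FI-63 replicate 3. That scaling moved the median log2 difference of all genes from -0.35 to 0.01 for P3FI-63 and from -0.30 to -0.01 in tumors. In the alternatives that kept every library of the 2 groups compared, SNORA73B was called in all 8, and SNORA61 and SNORA7A in all 6. All 3 members were at exactly 0 throughout the lower group whatever the setting, so this agreement adds no support to the calls. Depth is unknown, and a step of 14.61 to 81.21 TPM for members the length of SNORA63 limits what a value can show.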

Other observations

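Box C/D small RNAs named SNORD guide methylation and are mostly shorter than the members described here, some of which are methylation guides too. Of 281 SNORD, 269 (95.7%) were at 0 in all 24 libraries, total RNA included, against 50 of the 160 members (31.2%). Of the 223 SNORD under 100 bases, 0 were above 0 in any library. SNORD17, which has 237 bases, was above 0 in all 23 polyA libraries, at 4.75 to 50.3 TPM, and was at 5928 TPM in total RNA.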
